A study of Mus musculus with 6 samples.

Results

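The fibroblast growth factor (FGF), insulin-like growth factor (IGF), platelet-derived growth factor (PDGF) and vascular endothelial growth factor (VEGF) genes were followed in the ageing mouse cochlear lateral wall. They were taken by symbol: Fgf, Fgfr, Igf or Igfbp followed by a digit, Pdgfa to Pdgfd and Vegfa to Vegfd. Of the 17091 genes in the deposited table, 43 matched. They are 15 FGF genes, 4 FGF receptors, 2 IGF ligands and 2 IGF receptors, 6 IGF binding proteins, 4 PDGF ligands and 4 VEGF ligands. The pattern also took 3 Igf2bp genes, which encode RNA-binding proteins, and 3 genes that carry a receptor's or ligand's name only (Fgfr1op, Fgfr1op2 and Igf2os).

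The mice were of the inbred strain CBA/CaJ, and lateral wall RNA came from 3 young animals (2 months of age) and 3 old animals (2.5 years of age). The wall was cut out by microdissection, and each sample pooled both cochleas of 1 mouse. No treatment or engineered allele is given for either group. In all 6 samples the label for the source reads auditory nerve cells, against lateral wall in the tissue label, the titles and the design.

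The lateral wall holds the stria vascularis, a vascular epithelium that pumps potassium into the endolymph, and the spiral ligament, a connective tissue of fibrocytes beneath it. FGFs are secreted ligands that bind tyrosine kinase receptors together with heparan sulphate, and their signal is turned down by feedback inhibitors such as the Sprouty and Spred proteins. IGFs act through the IGF1 receptor, and a family of binding proteins holds them outside the cell until proteases release them. PDGFs act on fibroblasts and on the pericytes around capillaries, and VEGFs on endothelial cells, so both families bear on the dense capillary bed of the stria.

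Depth was even, with 37055355 to 39103398 reads recovered per library from the deposited values. Markers of the lateral wall were present in all 6 libraries: none of the 6 marginal cell, 6 intermediate cell or 6 spiral ligament fibrocyte markers was at 0, and of 13 marker lists only skeletal muscle had genes at 0 in any library (Acta1 and Myh1). Old replicate 3 stood apart, with Xist at 45.2 normalised read counts against 24382 to 29162 in the other libraries. The labels give no sex. Macrophage and monocyte markers were called higher in 9 of 12 cases, and their sum ran from 8210 to 9609 in young and from 25819 to 37074.5 in old libraries. Neutrophil markers summed to 397 to 581 in young libraries and to 5611, 948 and 10796 in old replicates 1, 2 and 3. Each called gene has its limma adjusted p (Benjamini-Hochberg) without old replicate 3 beside its call.

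The genes that passed the test between the ages were 2 FGF receptors and 1 PDGF ligand, all lower in the old mice, while 20 of the 43 genes had a log2 fold change above 0 and 23 below. Fgfr1 was lower by 28.6%, Fgfr4 by 40.5% and Pdgfd by 44.3% (difference of group means). Of the 43 genes, 0 were called higher and 3 lower at an adjusted p under 0.05 (limma on log2(value + 1), Benjamini-Hochberg over 17091 genes), a share of 6.98%. Among all genes 5.25% were called, 2.71% higher and 2.55% lower. The groups did not overlap in 13 of the 43 genes (30.2%), 6 higher and 7 lower in old, and in 26.1% of all genes. The median log2 fold change, old minus young, was -0.01 over the 43 genes and 0.00 over all genes. At an unadjusted p under 0.05 the limma fit gave 5 growth factor genes higher and 10 lower, 15 in all, and 21.3% of all genes lay under that p.

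The 3 calls depended on single libraries. None of the 43 genes was called without young replicate 1, 2 or 3 (3.28%, 1.69% and 1.35% of all genes were called in those fits) or without old replicate 3 (3.58%). Without old replicate 1, limma called 4, with Fgf10, Fgf12 and Igfbp7 higher and Fgf9 lower (4.96% of all genes were called in that fit). Without old replicate 2 it called 5, all lower, namely Fgfr1, Fgfr4, Pdgfd, Igf2 and Igfbp2 (6.64% of all genes). Quantile normalisation left Pdgfd (4.62% of all genes). The fit with the replicate number as a block and the fit without trend and robust estimation left none (2.38% and 1.97% of all genes). At thresholds of 0.01 and 0.1 limma called 0 and 5 of the 43, beside 1.23% and 9.61% of all genes. On the recovered reads edgeR called Fgfr4 and Pdgfd (5.07% of all genes), and DESeq2 called 8 (10.6%). The authors' deposited table also held 8 of the 43 at an adjusted p under 0.05, and the same 8 by name: Fgf10, Fgf12, Igfbp3 and Igfbp7 higher and Fgfr1, Fgfr4, Pdgfd and Igf2bp2 lower.

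**Figure D1:**
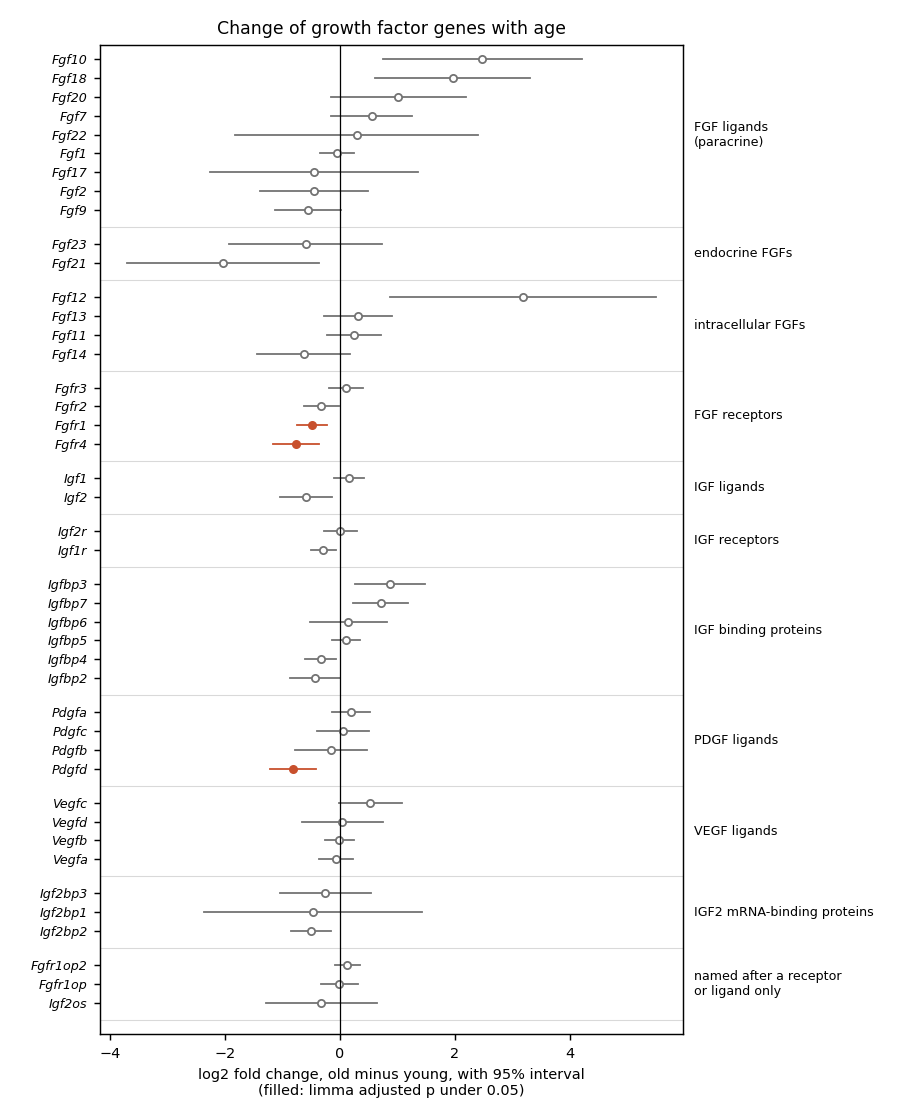
Log2 fold change on the log2(value + 1) scale (old minus young) of the 43 growth factor genes, with 95% intervals from limma, grouped by role. The 3 filled points, Fgfr1, Fgfr4 and Pdgfd, lie below 0, and the widest intervals belong to genes with few reads and to Fgf12 and Fgf10.

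Pdgfd encodes PDGF-D, a ligand that acts mainly through the PDGF receptor beta. Pdgfra encodes the PDGF receptor alpha, which binds the other PDGF ligands. Their promoter windows are shown because this ligand and this receptor were the PDGF genes called between the ages. Each is the 250 bases before the RefSeq transcription start on the gene's strand, from the RefSeq table of GRCm38.p6. Pdgfd is at chr9:6168236-6168485 on the plus strand, and Pdgfra at chr5:75152001-75152250 on the plus strand. Capitals mark a TATAAA match, searched on both strands (as TTTATA on the other), and GGGCGG was searched as a second motif (CCGCCC on the other strand).
Pdgfd: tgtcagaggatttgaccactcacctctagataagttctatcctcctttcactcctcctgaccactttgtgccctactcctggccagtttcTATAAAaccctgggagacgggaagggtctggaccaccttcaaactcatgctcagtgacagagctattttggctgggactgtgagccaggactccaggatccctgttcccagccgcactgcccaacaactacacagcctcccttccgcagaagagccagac
Pdgfra: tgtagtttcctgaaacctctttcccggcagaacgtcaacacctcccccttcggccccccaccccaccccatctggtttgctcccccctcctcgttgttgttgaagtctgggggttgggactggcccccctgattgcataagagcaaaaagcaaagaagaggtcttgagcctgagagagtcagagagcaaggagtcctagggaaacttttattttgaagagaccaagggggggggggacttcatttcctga
The Pdgfd window held 1 TATAAA match, from -160 to -155 relative to the start, and no GGGCGG match. The Pdgfra window held neither. Among 32817 RefSeq windows of the same length, 12.4% held TATAAA and 32.7% held GGGCGG on either strand. GC content was 53.6% in the Pdgfd and 54.4% in the Pdgfra window, beside a median of 52.4% over all windows. These letters are a description of the windows and mark no bound site.

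Among the 4 PDGF ligands, Pdgfd alone passed the test. It stood at 598, 498 and 396 normalised read counts in young replicates 1, 2 and 3 and at 270, 278 and 283 in old replicates 1, 2 and 3. The groups did not overlap, and the 3 old libraries lay closer together than the young ones. Pdgfd averaged 497 ± 101 in young and 277 ± 7.01 in old mice (n = 3 each, SD), and it fell by 0.82 ± 0.18 on the log2 scale (SE, limma adjusted p = 0.0313, Benjamini-Hochberg). The gene lies on chromosome 9 from 6168584 to 6378850 (GENCODE M21, GRCm38), and its value counts reads over the whole gene. Leaving out 1 library gave log2 fold changes of -0.98 to -0.68, and the limma adjusted p (Benjamini-Hochberg) was 0.0441 without old replicate 2, 0.0624 without old replicate 3 and between 0.050 and 0.117, above the threshold, without any other. In a bulk sample, fewer cells of a type and less RNA per cell cannot be told apart. Markers of bone and fibroblasts are given beside Pdgfd. Of 9 bone markers 6 were called lower (sum 5020 to 7972 in young, 2998 to 4030 in old libraries). Of 10 fibroblast markers 3 were called lower and 1 higher (sum 56351 to 66522 in young, 26254 to 61655 in old libraries, the latter within the young range). No bone or fibroblast marker was at 0. Sums of spiral ligament fibrocyte (1027240 to 1150770 in young, 434517 to 939169 in old) and skeletal muscle markers (300 to 509 and 85.5 to 159) were also lower in every old library. Those of pericyte and smooth muscle markers were not (15969 to 17051 and 14633 to 22448). The part of any of these lists in the fall of Pdgfd was not tested.

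The other PDGF ligands did not pass the test. Pdgfa, the ligand of PDGF receptor alpha in many connective tissues, stood at 358, 352 and 340 in young and at 362, 394 and 452 in old replicates 1, 2 and 3. Its groups did not overlap, but the lowest old value lay just above the highest young one, and the log2 fold change was 0.20 ± 0.15 (SE, limma adjusted p = 0.498). Pdgfb, through which endothelium recruits pericytes, stood at 274, 261 and 339 in young and at 162, 317 and 340 in old libraries. Only old replicate 1 was low, and the log2 fold change of -0.16 ± 0.28 turned to 0.18 without it (limma adjusted p = 0.801 with all libraries, Benjamini-Hochberg). Pdgfc was 409 ± 110 in young and 415 ± 39.2 in old mice (n = 3 each, SD).

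On the receptor side, Pdgfra was lower in every old library. It stood at 6602, 6139 and 6167 in young and at 2767, 2894 and 2904 in old replicates 1, 2 and 3, and it fell by 1.14 ± 0.09 on the log2 scale (limma adjusted p = 0.000433, Benjamini-Hochberg; 0.00168 without old replicate 3 and 0.000610 to 0.00514 without any 1 library). Pdgfrb, the receptor on pericytes, stood at 3164, 4157 and 4497 in young and at 2105, 3414 and 2429 in old libraries. The groups overlapped through old replicate 2 (log2 fold change -0.59 ± 0.19, limma adjusted p = 0.127, and 0.0196 without that library, Benjamini-Hochberg). Of 10 pericyte and smooth muscle markers, 0 were called in either direction by limma, and their sum ran from 15969 to 17051 in young and from 14633 to 22448 in old libraries. Pdgfrl, a receptor-like gene without a kinase domain, averaged 999 ± 182 in young and 572 ± 190 in old mice (n = 3 each, SD; limma adjusted p = 0.0885, and 0.0186 without old replicate 2).

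**Figure D2:**
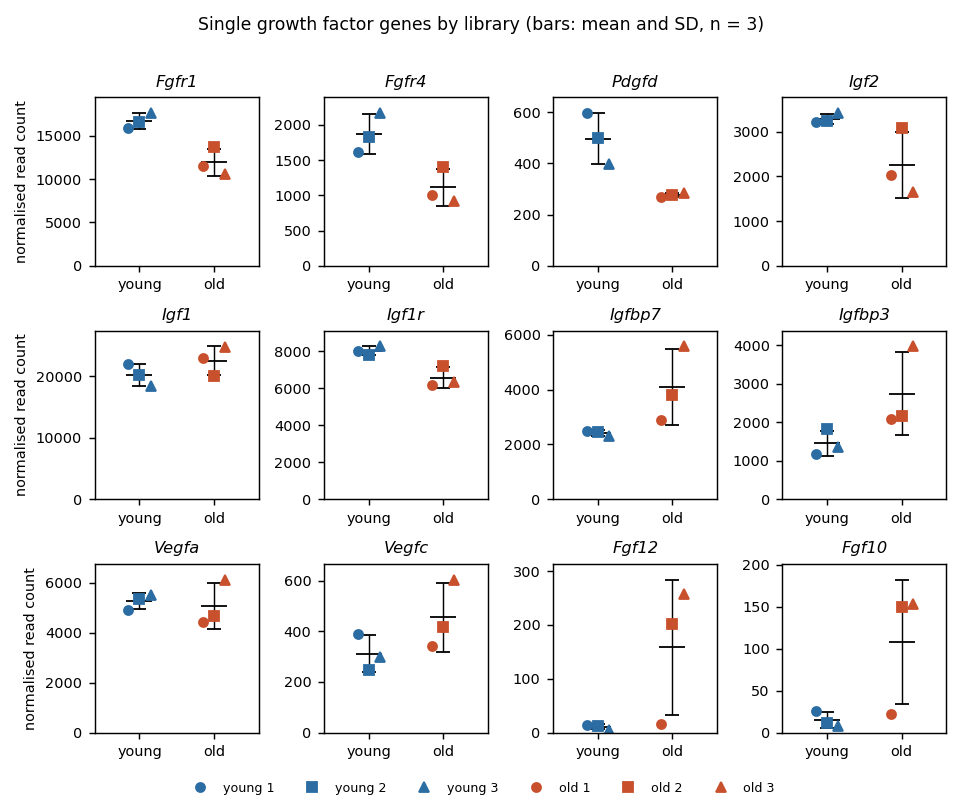
Normalised read count of 12 growth factor genes in each library on a linear axis from 0; points are libraries and bars are the mean and SD of 3. Fgfr1, Fgfr4 and Pdgfd lie lower in all old libraries, Fgf12 and Fgf10 are high in old replicates 2 and 3 only, and the Igf1 and Vegfa values of the groups overlap.

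Of the 4 FGF receptors, 2 fell with age and 2 did not pass the test. Fgfr1, the main receptor of mesenchymal cells, stood at 15889, 16597 and 17684 in young and at 11539, 13704 and 10602 in old replicates 1, 2 and 3. Every old library was below every young one, with old replicate 2 the nearest. Fgfr1 averaged 16723 ± 904 in young and 11948 ± 1591 in old mice (n = 3 each, SD), and it fell by 0.49 ± 0.12 on the log2 scale (SE, limma adjusted p = 0.0433, Benjamini-Hochberg). Leaving out 1 library gave log2 fold changes of -0.59 to -0.41. The adjusted p was 0.0105 without old replicate 2, 0.0777 without old replicate 3 and up to 0.197 without another library (limma, Benjamini-Hochberg), and 0.0536 by edgeR with TMM scaling. Fgfr1 spans chromosome 8 from 25513654 to 25575718, and 1 or more of its exons overlaps a gene on the opposite strand, so its reads are uncertain as far as the counting ignored strand.

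Fgfr4, a receptor best known in liver and muscle, stood at 1609, 1828 and 2173 in young and at 1008, 1408 and 921 in old libraries. The groups were separate, and old replicate 2 was again the highest of the old. Fgfr4 averaged 1870 ± 284 in young and 1113 ± 260 in old mice (n = 3 each, SD), and it fell by 0.76 ± 0.18 on the log2 scale (SE, limma adjusted p = 0.0410, Benjamini-Hochberg). Leaving out 1 library gave log2 fold changes of -0.94 to -0.64. Without old replicate 2 the adjusted p was 0.00606, without old replicate 3 it was 0.0972, and without another library it was 0.0597 to 0.173 (limma, Benjamini-Hochberg). The gene lies on chromosome 13 from 55152640 to 55168759.

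Fgfr2, whose splice forms serve epithelium and mesenchyme, stood at 8295, 10228 and 10247 in young and at 7480, 9044 and 6578 in old libraries. The values of the groups overlapped, and the log2 fold change was -0.32 ± 0.14 (limma adjusted p = 0.221, Benjamini-Hochberg). Fgfr3, the receptor that restrains cartilage growth and shapes the organ of Corti, stood at 2106, 1681 and 2053 in young and at 2387, 1830 and 2096 in old libraries. It overlapped between the ages, with a 95% interval of -0.19 to 0.41 for the log2 fold change. Per kilobase of the longest transcript, Fgfr1 had the highest level of the 4 receptors in young mice (3317 normalised read counts per kilobase), followed by Fgfr2 (2165), Fgfr4 (563) and Fgfr3 (459). Spiral ligament fibrocyte markers had the same order among the old libraries as Fgfr1 and Fgfr4, with old replicate 2 highest and old replicate 3 lowest. Of 6 such markers 2 were called lower, none was at 0, and their sum ran from 1027240 to 1150770 in young and from 434517 to 939169 in old libraries. Fibroblast sums (32968, 61655 and 26254 in old replicates 1, 2 and 3), basal cell sums (76533, 91452 and 67982) and skeletal muscle sums (136, 159 and 85.5) had that order too. Most of the fibroblast sum was Dcn (26767, 54308 and 20942). The log2 shift from the young mean, averaged over the fibroblast list, was -1.53, -0.73 and -0.85, lowest in old replicate 1. Neutrophil sums (5611, 948 and 10796) and red cell sums (22007, 7161 and 43370) had the reverse order. So did the sums of marginal cell (310863, 284103 and 375798), intermediate cell (239129, 195085 and 293478) and bone markers (3051, 2998 and 4030). The part of any of these lists in the fall of both receptors was not tested.

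**Figure D3:**
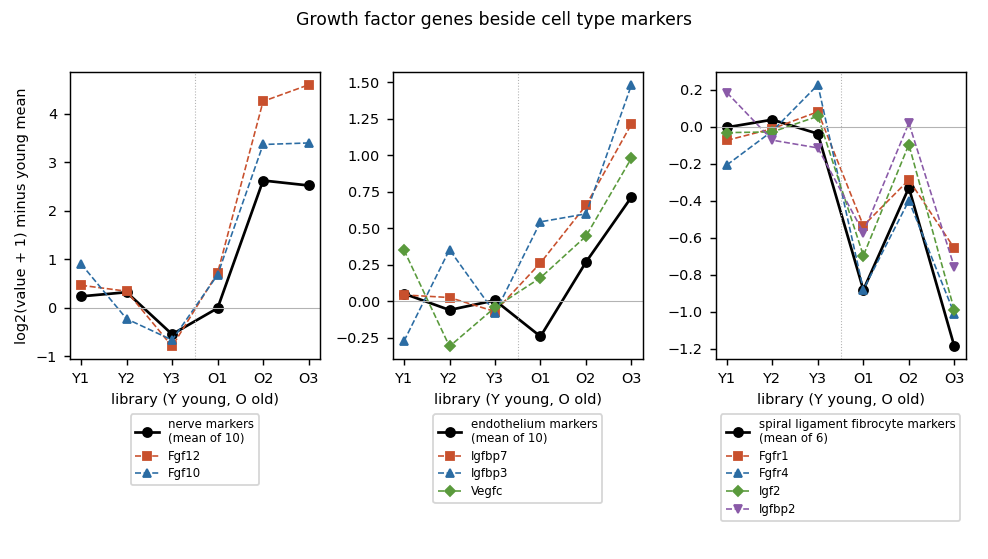
Each library's log2(value + 1) minus the young mean for growth factor genes (dashed) and for the mean of a marker list (black), with libraries Y1 to Y3 young and O1 to O3 old, joined by lines only to ease reading. Fgf12 and Fgf10 are high in the libraries where nerve markers are high (2.62 in old replicate 2 and 2.52 in old replicate 3). Igfbp7, Igfbp3 and Vegfc are highest where endothelium markers are highest, and Fgfr1, Fgfr4, Igf2 and Igfbp2 are lowest where fibrocyte markers are lowest. Some marker lists that are not drawn beside these genes had the same orders of sums as the endothelium and fibrocyte lists, and others had the reverse order of the fibrocyte list.

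Among the 11 secreted FGFs, no gene was called by limma, and 3 had an unadjusted p under 0.05 (Fgf10 and Fgf18 higher, Fgf21 lower). Fgf1, a ligand that can activate all FGF receptors, had the highest level per length of the secreted FGFs (2101 normalised read counts per kilobase of the longest transcript). It stood at 8784, 7888 and 8429 in young and at 8086, 6799 and 9589 in old libraries, with old replicates 2 and 3 below and above all young values. Its log2 fold change was -0.05 ± 0.13 (95% interval -0.34 to 0.24). Fgf9, which the inner ear epithelium uses to signal to the mesenchyme in the embryo, stood at 841, 983 and 1194 in young and at 995, 647 and 478 in old libraries. Old replicates 2 and 3 were low and old replicate 1 was within the young range (log2 fold change -0.56 ± 0.25, limma adjusted p = 0.250, and 0.0488 without old replicate 1, Benjamini-Hochberg).

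Fgf10, a ligand of the epithelial form of FGFR2 that is needed for inner ear development, stood at 26.2, 11.4 and 8.17 in young and at 22.3, 149 and 153 in old libraries. Old replicates 2 and 3 were high, and old replicate 1 was below young replicate 1. The log2 fold change was 2.48 ± 0.76 (limma adjusted p = 0.106, and 0.00815 without old replicate 1, Benjamini-Hochberg). Fgf18, a ligand for cartilage and bone cells, had 11 reads over all young and 48 over all old libraries. Its old values, 12.6, 19.9 and 13.5, all lay above the young ones of 7.34, 1.04 and 3.06 (log2 fold change 1.96 ± 0.60, limma adjusted p = 0.0980). Fgf20, which the developing organ of Corti needs for outer hair cells, was likewise separate at 10 reads in young and 24 in old libraries (limma adjusted p = 0.304). Fgf7, the keratinocyte growth factor, averaged 57.5 ± 17.3 in young and 83.9 ± 21.7 in old mice (n = 3 each, SD). Fgf2, Fgf17 and Fgf22 had 42, 18 and 5 reads over the 3 young libraries and 32, 12 and 8 over the 3 old ones, and none had an unadjusted limma p under 0.05.

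The endocrine FGFs were close to the detection limit. Fgf21, a metabolic hormone made mainly by the liver, stood at 23.1, 6.22 and 12.3 in young and at 7.76, 0.946 and 0.961 in old libraries. The last 2 values are 1 read each, the groups overlapped through young replicate 2, and the log2 fold change was -2.04 ± 0.74 (limma adjusted p = 0.158, Benjamini-Hochberg). Fgf23, the phosphate hormone of bone, had 47 reads in young and 34 in old libraries.

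The intracellular FGFs, Fgf11 to Fgf14, are not secreted and bind voltage-gated sodium channels. Fgf12 stood at 13.6, 12.4 and 5.11 in young and at 16.5, 202 and 257 in old replicates 1, 2 and 3. All old values were above the young ones, but old replicate 1 was close to them and the other old libraries were far above. The log2 fold change was 3.19 ± 0.99 (limma adjusted p = 0.120, and 0.00271 without old replicate 1, Benjamini-Hochberg). Of 10 nerve markers 1 was called higher and none was at 0. Their sum ran from 15294 to 18642 in young libraries and was 21485, 33686 and 36593 in old replicates 1, 2 and 3. The nerve list's mean shift from the young mean was -0.01, 2.62 and 2.52 on the log2 scale in the same order, beside 0.72, 4.26 and 4.60 for Fgf12 and 0.68, 3.37 and 3.40 for Fgf10. The part of nerve in these values was not tested.

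Fgf13, the highest of the class per length in young mice, stood at 248, 259 and 238 in young and at 331, 202 and 443 in old libraries, with old replicate 2 below all young values. Its log2 fold change was 0.32 ± 0.26 (limma adjusted p = 0.540). Fgf14 averaged 146 ± 34.8 in young and 100 ± 50.5 in old mice, and its lowest values, 87.0 and 57.6, were in old replicates 2 and 3. Fgf11 stood at 289, 238 and 213 in young and at 227, 345 and 309 in old libraries. Old replicates 2 and 3 were above all young values and old replicate 1 was among them, as for the mean shift of the nerve list. The nerve sums differed, with old replicate 1 above all young libraries and old replicate 3 highest. The log2 fold change of Fgf11 was 0.24 ± 0.21 (limma adjusted p = 0.556, Benjamini-Hochberg).

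In the IGF system no gene was called by limma. Igf1, the growth hormone dependent ligand, stood at 21882, 20153 and 18348 in young and at 22897, 20003 and 24651 in old libraries. The groups overlapped, and the log2 fold change was 0.16 ± 0.12 with a 95% interval of -0.10 to 0.42. Igf2, the ligand most abundant in the fetus, stood at 3222, 3230 and 3426 in young and at 2032, 3081 and 1655 in old libraries. Every old value was below the young ones, old replicate 2 only just, and the log2 fold change was -0.59 ± 0.20 (limma adjusted p = 0.132, and 0.00404 without old replicate 2, Benjamini-Hochberg). That order among the old libraries is also the one of the fibrocyte, basal cell and skeletal muscle marker sums given above. The fibroblast sum, mostly Dcn, had it too, but the mean shift of the fibroblast list did not. The part of these lists was not tested. Igf2 overlaps the antisense gene Igf2os on chromosome 7. Igf2os had 59 reads in young and 48 in old libraries, against 9540 and 7077 for Igf2. Per kilobase of the longest transcript Igf1 (2854 in young) was above Igf2 (697 in young).

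Igf1r, the tyrosine kinase receptor that carries the signal of both ligands, stood at 8006, 7823 and 8292 in young and at 6194, 7239 and 6326 in old libraries. All old values were lower, and the log2 fold change was -0.29 ± 0.10 (limma adjusted p = 0.122, Benjamini-Hochberg, and 0.0568 to 0.393 without 1 library). Igf2r, which takes up IGF2 for breakdown and sorts lysosomal enzymes, stood at 6544, 7365 and 7970 in young and at 7021, 6457 and 8615 in old libraries. The groups overlapped, and the 95% interval of its log2 fold change ran from -0.28 to 0.30.

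Per kilobase of the longest transcript in young mice, the binding protein genes Igfbp5 (8465) and Igfbp2 (8382) had the highest levels of the 43 genes. Per kilobase of the median transcript the order was Igf1 (14724), Igfbp2 (11055) and Igfbp5 (9886). The pair are neighbours on chromosome 1, Igfbp2 from 72824503 to 72852474 and Igfbp5 from 72857932 to 72874884. Igfbp5, a binding protein that attaches to matrix, stood at 51584, 53207 and 47734 in young and at 50080, 54320 and 59721 in old libraries. It overlapped between the ages, with a 95% interval of -0.14 to 0.35 for the log2 fold change. Igfbp2 stood at 12404, 10380 and 10084 in young and at 7345, 11068 and 6451 in old libraries. Old replicate 2 was within the young range and the other old libraries were below it (log2 fold change -0.44 ± 0.19, limma adjusted p = 0.232, and 0.0137 without old replicate 2, Benjamini-Hochberg).

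Igfbp7, a low-affinity member found in vessel walls, stood at 2482, 2452 and 2294 in young and at 2889, 3797 and 5584 in old libraries. All old values were above all young ones, and they were spread widely, with old replicate 3 highest. The log2 fold change was 0.71 ± 0.21 (limma adjusted p = 0.0946, and 0.0172 without old replicate 1, Benjamini-Hochberg). Igfbp3, the main carrier of IGFs in serum, stood at 1180, 1821 and 1348 in young and at 2079, 2159 and 3982 in old libraries. Here too the groups were separate and old replicate 3 was highest (log2 fold change 0.87 ± 0.27, limma adjusted p = 0.108, Benjamini-Hochberg). Without old replicate 3 the log2 fold change was 0.46 for Igfbp7 and 0.57 for Igfbp3. Of 10 endothelium markers 0 were called in either direction by limma and none was at 0. Their sum ran from 13906.5 to 16039 in young libraries and was 12038, 17827 and 23741 in old replicates 1, 2 and 3, the same order as Igfbp7. In old replicate 1 the endothelium sum was below all young sums, while Igfbp7 was above all young values. Sums of pericyte and smooth muscle (14633, 19778 and 22448), macrophage and monocyte (25819, 26787 and 37074.5) and nerve markers (21485, 33686 and 36593) rose in the same order. By the list's mean shift from the young mean, endothelium (-0.24, 0.27 and 0.71) and pericyte markers (-0.50, -0.17 and 0.47) kept that order. Macrophage (1.51, 1.36 and 1.82) and nerve markers (-0.01, 2.62 and 2.52) did not. The part of any of these lists in the values of Igfbp7 and Igfbp3 was not tested.

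Igfbp4, an inhibitor of IGF action that the protease PAPP-A cuts, stood at 7023, 6886 and 5774 in young and at 4541, 5596 and 5508 in old libraries. The groups were separate by a small margin (log2 fold change -0.33 ± 0.12, limma adjusted p = 0.153, Benjamini-Hochberg). Igfbp6, which prefers IGF2, averaged 163 ± 37.3 in young and 186 ± 75.8 in old mice (n = 3 each, SD).

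**Figure D4:**
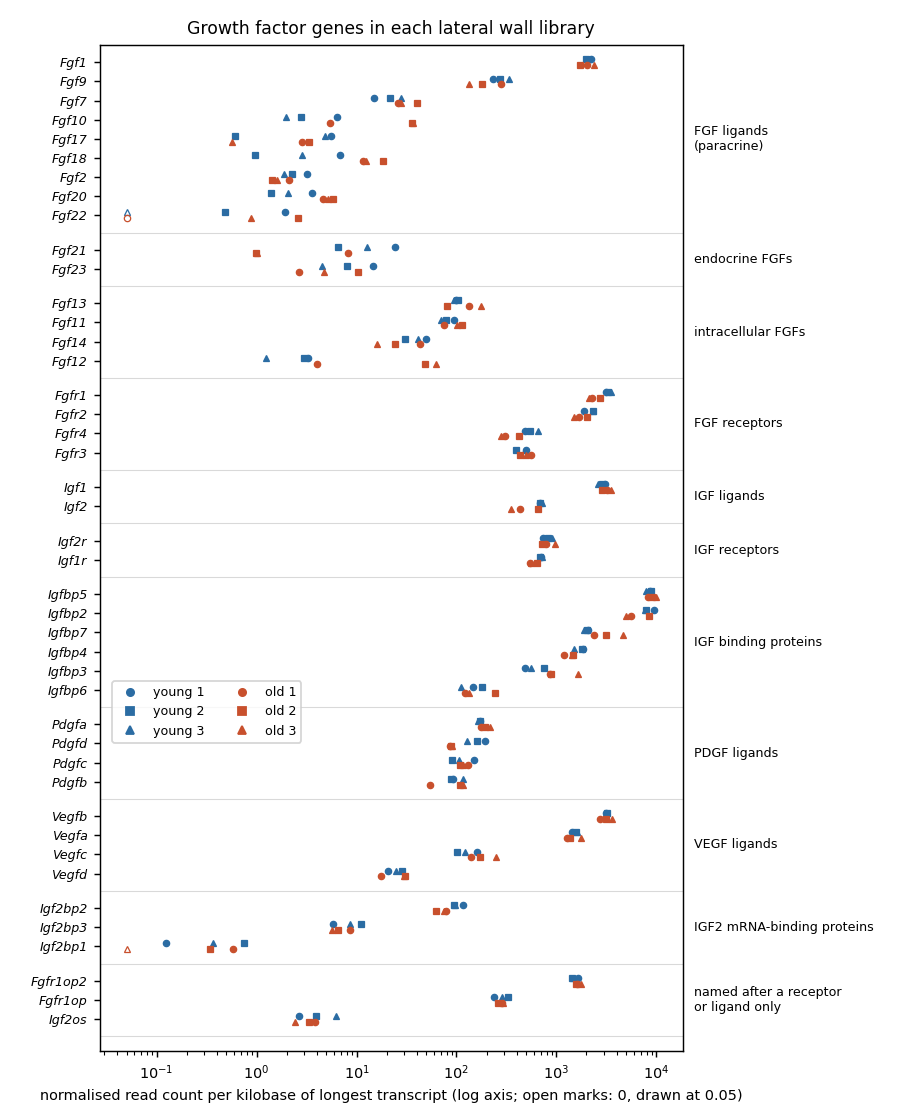
Normalised read count per kilobase of the longest annotated transcript for the 43 growth factor genes in each library on a log axis, by role and in order of the young level. On this length Igfbp5 and Igfbp2 are the highest, and Fgf22 and Igf2bp1 the lowest, with open marks at 0 in single libraries.

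None of the VEGF ligands was called or had an unadjusted p under 0.05, and none had groups without overlap. Vegfa, the main growth factor of blood vessels, stood at 4913, 5371 and 5527 in young and at 4420, 4689 and 6138 in old libraries. Old replicates 1 and 2 were below and old replicate 3 above all young values, and the log2 fold change was -0.07 ± 0.13 (95% interval -0.36 to 0.23). Vegfb, which binds VEGF receptor 1 (Flt1) alone among the VEGF receptor kinases, stood at 4059, 4131 and 3985 in young and at 3504, 4022 and 4660 in old libraries. Its old values were on both sides of the young ones, with a 95% interval of -0.27 to 0.25 for the log2 fold change. Vegfb had the highest level of the class per kilobase of the longest transcript (3168 in young against 1527 for Vegfa), and by the median transcript length Vegfa was the higher.

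Vegfc, a ligand of the lymphatic receptor Flt4, stood at 390, 247 and 297 in young and at 342, 417 and 604 in old libraries. Old replicate 3 was the highest old library, as for the sums of endothelium, pericyte, macrophage and nerve markers. The same held for the sums of neutrophil, red cell, bone, marginal cell and intermediate cell markers. The part of any of these lists in the Vegfc values was not tested. The groups overlapped (log2 fold change 0.53 ± 0.24, limma adjusted p = 0.251, Benjamini-Hochberg). Vegfd averaged 50.7 ± 8.58 in young and 53.3 ± 15.1 in old mice (n = 3 each, SD). Of the VEGF receptors, Kdr stood at 624, 766 and 657 in young and at 759, 697 and 993 in old libraries, and the groups overlapped (log2 fold change 0.25 ± 0.16). Flt1 stood at 1296, 973 and 1133 in young and at 1038, 1210 and 2566 in old libraries. Only old replicate 3 was high, and the log2 fold change of 0.39 ± 0.32 was -0.0066 without it. Flt4 stood at 461, 562 and 486 in young and at 519, 742 and 756 in old libraries. Old replicate 1 was within the young range and the other old libraries were above it (log2 fold change 0.40 ± 0.17, limma adjusted p = 0.226, Benjamini-Hochberg). Flt4 was the one VEGF receptor gene with an unadjusted limma p under 0.05. Pgf, the placental growth factor, averaged 106 ± 16.3 in young and 130 ± 21.3 in old mice (n = 3 each, SD). The 6 listed genes of the low oxygen response, which carry or restrain the induction of VEGF (Hif1a, Epas1, Arnt, Egln1, Egln3 and Vhl), were called in 0 cases by limma. In 0 cases was the unadjusted p under 0.05, and the log2 fold changes ran from -0.23 to 0.10. Among them Epas1, the hypoxia factor of endothelium, averaged 7731 ± 470 in young and 6779 ± 1964 in old mice, and Vhl, which marks hypoxia factors for breakdown, 1853 ± 93.8 and 1601 ± 229 (n = 3 each, SD).

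The IGF2 mRNA-binding proteins control messenger RNAs and are not growth factors. Igf2bp2 stood at 574, 473 and 479 in young and at 391, 310 and 372 in old libraries. The groups were separate, with a log2 fold change of -0.51 ± 0.16 (limma adjusted p = 0.10, Benjamini-Hochberg). Igf2bp3 had 108 reads in young and 95 in old libraries, and Igf2bp1 10 and 8. Fgfr1op2 stood at 4703, 4175 and 4179 in young and at 4667, 4495 and 5085 in old libraries, and Fgfr1op averaged 995 ± 162 in young and 981 ± 59.4 in old mice. Both overlapped between the groups.

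Around these genes, 58 of 61 listed pathway partners were in the table. Of them 0 were called higher and 7 lower by limma (12.1%, beside 2.71% higher and 2.55% lower among all genes). At an unadjusted limma p under 0.05, 4 were higher and 19 lower, 23 in all, and 21.3% of all genes lay under that p. The lists were chosen with earlier results of these data known, so the shares of partners and of all genes are not a test of the pathways. On the recovered reads, edgeR with TMM called the same 7 and DESeq2 called 11, all lower. The median log2 fold change of the 58 was -0.12, beside 0.00 over all genes, and 18 had groups without overlap (31.0%, beside 26.1% of all genes), 2 higher and 16 lower. Besides Pdgfra, the genes called lower were Kl, Gpc1, Pappa2, Htra1, Shc1 and Pik3r1. The count was between 3 and 10 when 1 library was left out, and 3 without young replicate 2 or without young replicate 3.

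Of the 10 FGF co-receptors and carriers, 2 were called lower. Kl, the co-receptor that FGF23 needs, stood at 3321, 2749 and 3958 in young and at 1551, 2295 and 1973 in old libraries, and it fell by 0.79 ± 0.17 on the log2 scale (limma adjusted p = 0.0353, Benjamini-Hochberg). Gpc1, a heparan sulphate proteoglycan of the cell surface, stood at 7050, 7201 and 6960 in young and at 5210, 4714 and 5407 in old libraries, and it fell by 0.47 ± 0.09 (limma adjusted p = 0.0221, Benjamini-Hochberg). In both genes every old library was below every young one. The same held for Fgfrl1, Fgfbp1, Flrt3 and Sdc4, which were not called. Their limma adjusted p were 0.1698, 0.0764, 0.1703 and 0.05002 in that order (Benjamini-Hochberg). Leaving out 1 library gave adjusted p of 0.0163 to 0.141 for Kl and 0.0277 to 0.104 for Gpc1 (limma, Benjamini-Hochberg). Without old replicate 3 they were 0.0746 for Kl and 0.0277 for Gpc1. The Kl call was lost without young replicate 1 or 3 or old replicate 1 or 3, and the Gpc1 call without any of the young libraries. The 11 FGF feedback and target genes, which include the Sprouty, Spred and Etv genes, held 0 calls by limma, 2 genes higher and 3 lower at an unadjusted p under 0.05, and a median log2 fold change of -0.02. Il17rd, a feedback inhibitor, averaged 813 ± 62.5 in young and 1030 ± 41.6 in old mice without overlap, and Spred2 979 ± 101 and 714 ± 102, also without overlap (n = 3 each, SD). Their limma adjusted p were 0.123 and 0.108 (Benjamini-Hochberg).

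Among the 5 proteases and inhibitors that act on IGF binding proteins, the proteases Pappa2 and Htra1 were called lower. Pappa2, which cuts IGFBP3 and IGFBP5, stood at 54.6, 60.2 and 48.0 in young and at 10.7, 10.4 and 14.4 in old libraries. All old libraries were far below the young ones, with 157 reads in young and 37 in old libraries, and Pappa2 fell by 2.11 ± 0.33 on the log2 scale (limma adjusted p = 0.00901, Benjamini-Hochberg, 0.0565 without young replicate 2 and 0.0171 without old replicate 3). Htra1, a secreted protease of matrix and IGFBP5, stood at 1526, 1694 and 1666 in young and at 827, 974 and 682 in old libraries. It fell by 0.99 ± 0.14 on the log2 scale (limma adjusted p = 0.00670, 0.0146 without old replicate 3 and 0.00225 to 0.0417 without any 1 library, Benjamini-Hochberg).

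The insulin and IGF receptor arm held 0 calls of 9 by limma, with 1 gene at an unadjusted p under 0.05. That gene, Grb14, an inhibitor of the insulin receptor, averaged 3376 ± 228 in young and 2577 ± 635 in old mice (n = 3 each, SD; limma adjusted p = 0.191, and 0.0468 without old replicate 1, Benjamini-Hochberg). Igfals, the third part of the serum IGF complex, averaged 111 ± 6.10 in young and 85.9 ± 6.95 in old mice without overlap (n = 3 each, SD). Of 8 shared adaptors, 2 were called lower. Shc1 stood at 3734, 4470 and 3976 in young and at 3001, 2970 and 2998 in old libraries, and it fell by 0.44 ± 0.10 on the log2 scale (limma adjusted p = 0.0350, Benjamini-Hochberg). Pik3r1, the regulatory subunit of phosphoinositide 3-kinase, stood at 11726, 10273 and 10707 in young and at 6885, 8287 and 5936 in old libraries, and it fell by 0.64 ± 0.13 (limma adjusted p = 0.0254, Benjamini-Hochberg). Both were separate between the ages. The Shc1 call held only without young replicate 1 (adjusted p 0.0458, against 0.0625 without old replicate 3 and up to 0.147 without another library), and the Pik3r1 call only without old replicate 2 or 3 (0.00465 and 0.0453, and up to 0.103 without another library; limma, Benjamini-Hochberg).

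**Figure D5:**
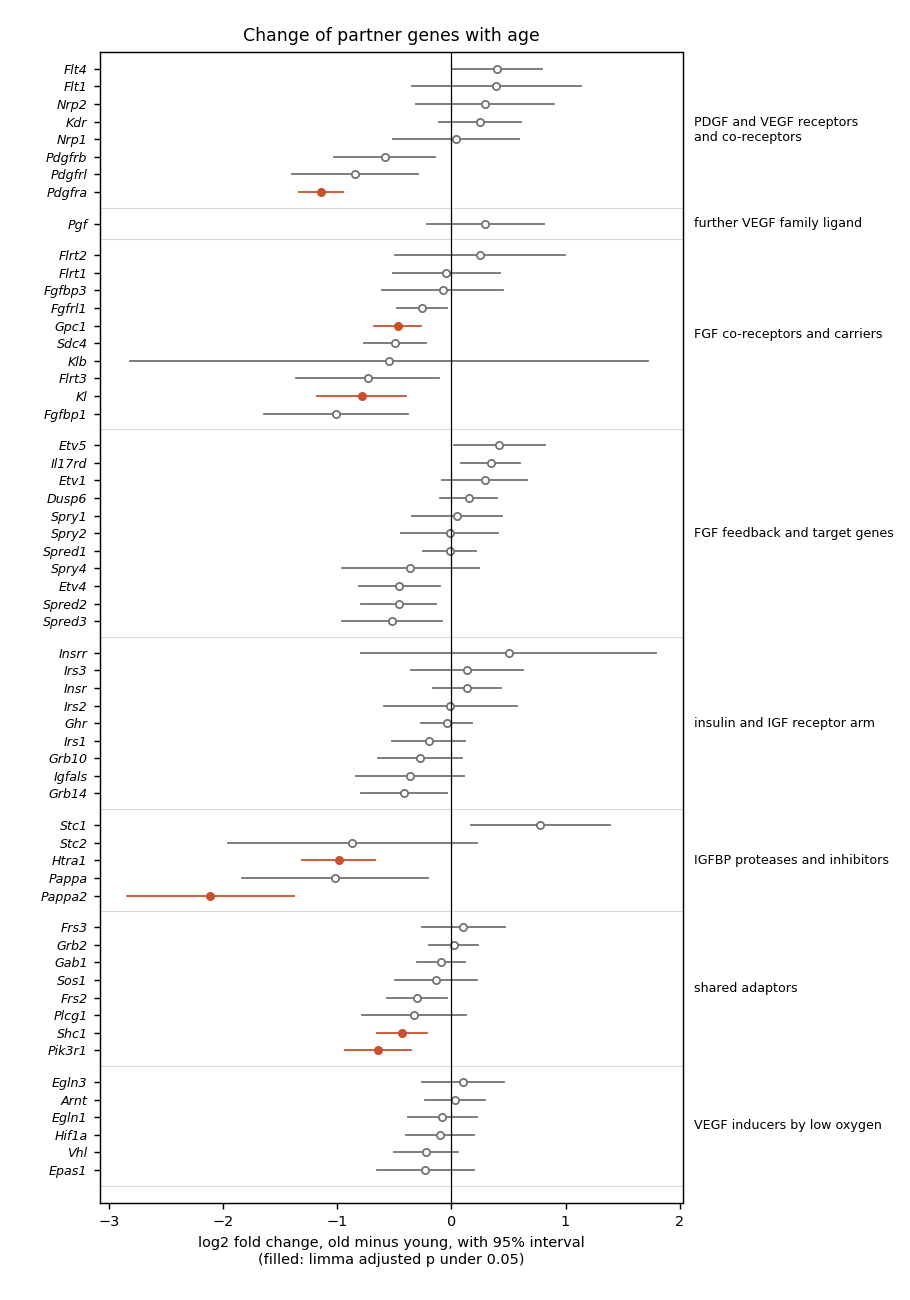
Log2 fold change on the log2(value + 1) scale (old minus young) of the 58 pathway partners, with 95% intervals from limma, grouped by their part in the pathways. The 7 filled points, among them Pdgfra, Htra1 and Pappa2, all lie below 0, and the intervals of the 6 low oxygen genes all cross 0.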

How the data were processed

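RNA of 6 lateral wall samples was sequenced, with total RNA purified by the miRNeasy Mini Kit and libraries made by the TruSeq RNA kit, per the labels' protocols. The submitters' processing notes name Partek, TopHat2, DESeq2 and the build mm10 with neither version nor role. Strandedness and annotation are not given in the sources used here. Each value in the authors' deposited table of 17091 genes is a signal, the read count divided by a size factor of the library. For each gene the authors' deposited table adds a signed fold change, a p-value and its adjusted value, the last missing for 332 genes. Division by each library's step (0.946 to 1.05) gave whole reads within 0.1 in 99.9% of values and in 100% of values under 10000, and the deepest library had 1.055 times the reads of the shallowest.

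Because the values are normalised, groups were compared with limma 3.58.1 (trend and robust estimation, R 4.3.3) on log2(value + 1), two-sided, with Benjamini-Hochberg adjustment over all 17091 genes and a threshold of 0.05. Changes of genes with low counts come out too small on that scale. The script was tested on simulated data. edgeR 4.0.16 and DESeq2 1.42.0 on the recovered reads were alternatives and called 866 (edgeR, TMM) and 1819 (DESeq2) genes, beside 898 by limma. The other alternatives were pseudocounts of 0.1 and 10, a mean of at least 10, quantile normalisation, limma without trend, the replicate block, leaving out each library, thresholds of 0.01 and 0.1 and the authors' adjusted p-values. Each sample is a separate mouse. With 3 against 3 samples an exact permutation test has a smallest p of 0.1 and was not used.

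The growth factor genes, the 8 partner lists, the 13 marker lists and the tests were chosen with earlier results of these data known. Values in every library were printed for called genes, for up to 10 further genes whose mean was at least 50 and whose groups did not overlap, for the gene of each role with the highest level per length and for a fixed set of ligands and receptors. Of partners, those called and the 2 with the smallest p of each list were named, and Pdgfra, Pdgfrb, Kdr and Flt1 in every case. Values of Fgf9, Fgf10, Fgf11, Fgf18, Fgf20, Igfbp2, Vegfc and Flt4 were added after they were seen. The partners Fgfrl1, Fgfbp1, Flrt3 and Sdc4 were also named after their values were seen. All 43 genes matched GENCODE M21 (GRCm38). Levels per kilobase use the longest annotated transcript. As strand is not given, 15 of the 43 with an exon overlapping a gene on the opposite strand have uncertain reads, among them Fgfr1, Igf2, Igfbp7, Pdgfa, Fgf10 and Fgf20. Exons of 4 of the 43 (Fgf2, Fgfr2, Igf2 and Igf2bp1) overlap another gene on the same strand, which leaves their reads uncertain with either kind of library. Among called partners, exons of Pdgfra and Gpc1 overlap genes on the opposite strand, and exons of Pdgfra and Pappa2 genes on the same strand. Of the 43 genes, 35 have a RefSeq promoter window.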

Additional observations from a re-analysis of the deposited data

How the results depend on the processing

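The count of growth factor genes called (3, all lower) was 1 under quantile normalisation, 0 for limma without trend and robust estimation, 8 by DESeq2 and 8 in the authors' deposited table, and 0 and 5 at thresholds of 0.01 and 0.1 (1.23% and 9.61% of all genes). Leaving out 1 library gave 0 to 5. The count of partners (7) was 3 without trend and robust estimation, 3 at a threshold of 0.01, 11 by DESeq2, 12 in the authors' deposited table and 3 to 10 without 1 library. Counts under both pseudocounts, the mean filter and both edgeR fits stayed within 1.5 times. With the replicate block the counts were 0 growth factor genes and 3 partners. The numbers do not pair the samples, which are different mice. Deviations of same-numbered samples correlated at -0.244, -0.0965 and -0.0879 over 13308 genes, and those of differently numbered samples at -0.146 to 0.235. As the deviations were taken from the mean of each group of 3, these correlations cannot decide on pairing. The median log2 fold change of the 43 genes ranged from -0.09 to 0.02 without 1 library. Among named genes, direction turned only for some that were not called. Without 1 library, the log2 fold changes ranged from -0.173 to 0.0751 for Fgf1, from -0.111 to 0.0974 for Igf2r, from -0.352 to 0.181 for Pdgfb, from -0.209 to 0.0275 for Vegfa, from -0.112 to 0.0933 for Vegfb and from -0.00663 to 0.646 for Flt1. Under quantile normalisation they were 0.0361 for Fgf1 and 0.0516 for Vegfb, which stood at 0.00614 by edgeR with TMM, 0.00124 by edgeR with DESeq2 size factors and 0.00124 by DESeq2. Of the other values of single genes under an alternative, 580 kept their direction and side of the threshold, 52 lost and 19 gained a call. The cause of these changes was not tested. What depth limits for genes with few reads, such as Fgf2, Fgf17, Fgf22 and Igf2bp1, was not tested.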
